A study of Mus musculus with 18 samples.

Results

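The ligands of the TNF superfamily are cell surface or secreted proteins that act as trimers on matching receptors, and 8 of them were followed here by gene symbol among the 24485 genes listed: Tnf, Lta, Ltb, Tnfsf9, Tnfsf10, Tnfsf13b, Tnfsf14 and Tnfsf15. They were picked by gene symbol as members of the family, and all 8 were found in every library. RNA was sequenced from bone marrow-derived macrophages (BMDMs) of Il10-/- mice on a C57BL/6J background, which cannot make the anti-inflammatory cytokine IL-10, in 18 libraries that form 6 groups of 3. After 6 days of culture the cells were left unstimulated and untreated, given 500 nM (+)-JQ1 (the group JQ1) or given 10 ng/mL IL-10 for 12 hours, and each of these conditions was also followed by 50 ng/mL lipopolysaccharide (LPS) for 4 hours (LPS, LPS + JQ1 and LPS + IL-10), with saline buffer as the control for LPS. (+)-JQ1 blocks the bromodomains through which BET proteins bind acetylated histones. Cells without pretreatment are called untreated in the labels, whereas the study's methods give them vehicle before LPS. The labels give 3 mice and matched samples, and libraries with the same replicate number were taken to come from the same mouse, which no label states library by library. All groups carry the Il10 deletion and no wild-type library was compared, so nothing here separates its effect.

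TNF is the leading early cytokine of the activated macrophage. It is made as a membrane protein, is cut from the cell by the protease Adam17, and binds Tnfrsf1a and Tnfrsf1b, whose signals reach NF-kB through Traf adaptors or cell death through caspases. In macrophages, LPS is sensed by Toll-like receptors, which switch on Tnf through NF-kB and raise many interferon response genes after it. The comparisons address how BET inhibition changes this response and how that differs from IL-10, which normally restrains it.

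Tnf, Lta and Ltb lie side by side in the major histocompatibility complex. In the mouse build mm9, Ltb spans chr17:35331384-35333265 on the plus strand, Tnf chr17:35336326-35338952 on the minus strand and Lta chr17:35340110-35342296 on the minus strand. The gaps are 3060 bases between Ltb and Tnf and 1157 bases between Tnf and Lta, with no annotated gene in either. Tnfsf9 (chr17:57244808-57247180, plus) and Tnfsf14 (chr17:57328915-57333612, minus) lie farther along the same chromosome, 81734 bases apart. Tnfsf10 is at chr3:27215950-27241349 (plus), Tnfsf13b at chr8:10006843-10035441 (plus) and Tnfsf15 at chr4:63385637-63406147 (minus). Tnfsf9 alone overlapped another annotated gene, Gm11110 on the opposite strand, which had 1 to 17 counts per library. Whole gene spans were compared, not exons, and for the counting the study names only default settings. Whether this pair shares reads was not tested. The Tnfsf9 counts were whole numbers in every library.

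The sequence just upstream of the Tnf start is shown because Tnf had the highest level of the ligands with LPS. These are the 250 bases before the RefSeq start in GRCm38.p6, within the window chr17:35201958-35202257 on the minus strand, written 5′ to 3′.

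Tnf upstream: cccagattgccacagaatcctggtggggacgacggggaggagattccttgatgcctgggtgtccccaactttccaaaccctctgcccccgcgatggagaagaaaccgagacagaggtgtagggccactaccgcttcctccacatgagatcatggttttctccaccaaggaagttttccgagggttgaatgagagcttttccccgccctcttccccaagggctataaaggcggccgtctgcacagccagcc

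Windows from 250 bases before to 50 after the start, from RefSeq, were present for 7 of the 8 genes (2 starts for Tnfsf13b), and were searched on both strands for AP-1 sites (TGANTCA), for the core of the interferon-stimulated response element (ISRE) and for the NF-kB consensus. No match was found in the windows of Tnf, Lta, Tnfsf10 and Tnfsf15, which says only that these letters are not within them. The 3 motifs were present in 7.81%, 3.44% and 8.46% of the 32851 windows of all genes. The members with a match are shown as 30 bases each with the match in capitals. They are members with low counts, as is Lta, which had no match, and a link of motif to level was not tested. The Ltb match is to the NF-kB consensus, and the first Tnfsf13b match and the Tnfsf14 match are AP-1 sites. That of Tnfsf13b begins at base 40 after its first start. The second Tnfsf13b match is the interferon element, 16 bases before the later start. The windows are chr17:35194257-35194556 (plus) for Ltb, chr8:10006217-10006516 and chr8:10006383-10006682 (plus) for Tnfsf13b and chr17:57194132-57194431 (minus) for Tnfsf14. The Tnfsf13b AP-1 site also falls within its second window, and no 2 of the motifs overlapped each other.

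Ltb: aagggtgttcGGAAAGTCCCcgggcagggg
Tnfsf13b first start: tcgataagcttgtctggagTGAGTCAgtct
Tnfsf13b second start: tacaaaaactGAAAGTGAAAtgcggaaggc
Tnfsf14: ccatcccaccTGAGTCAcattttctggaaa

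Tnf mRNA is also known for the AU-rich elements of its 3′ UTR, to which decay factors such as Zfp36 bind. In the GENCODE vM1 transcripts, the nonamer TTATTTATT occurred 5 times in the 764 bases of the Tnf 3′ UTR and 1 time in the 572 bases of that of Lta. It was absent from the longest 3′ UTR of Ltb, Tnfsf9, Tnfsf10, Tnfsf14 and Tnfsf15, and present in 6.52% of 19915 genes. No 3′ UTR was found for Tnfsf13b. The shorter ATTTA occurred 8 times in Tnf, 3 in Lta, 0 in Ltb and 2 in Tnfsf9. It occurred 8 times in the 3998 bases of Tnfsf10, 1 time in Tnfsf14 and 11 times in the 4986 bases of Tnfsf15. The stretches that hold most of the nonamers are printed with them in capitals, from base 435 of the Tnf 3′ UTR and base 313 of the Lta 3′ UTR.

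Tnf AU-rich stretch: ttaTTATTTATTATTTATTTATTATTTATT
Lta AU-rich stretch: aaaagttaagTTATTTATTtatagagaata

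Library totals ran from 6781952 to 28289498 expected counts, the lowest in replicate 2 of unstimulated cells, and 3 counts in a library corresponded to 0.106 to 0.442 CPM (counts scaled to a common library total). The counts of every member were whole numbers in every library. Normalised counts are counts divided by the size factor of the library, and TPM values are also divided by gene length and scaled to a fixed sum, and are used to compare levels between genes. All 8 macrophage markers detected were present in every library, and summed to between 14316.5 and 29066 TPM. The remaining Il10 transcript was at 27.1 to 177 normalised counts, with no wild-type library to compare it with. Among T cell markers, the CD3 chains Cd3d, Cd3e and Cd3g reached at most 0.25, 0.09 and 0.14 TPM, whereas Cd28, Lck and Cd247 reached 14.5, 4.46 and 3.93 TPM. Among B cell markers Cd79b reached 4.45 TPM, and the highest NK cell markers, Klrb1c and Klrd1, reached 0.16 TPM. Granulocyte markers were mixed, with Ly6g at 0 in all 18 libraries and S100a9 at 3.85 to 40.9 TPM. In bulk RNA, fewer cells of a type and less RNA per cell cannot be told apart.

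LPS set the 8 ligands far apart in level. In unstimulated cells the order by mean TPM (± SD, n = 3) was Tnf at 31.0 ± 10.6, Tnfsf13b at 3.50 ± 0.612, Tnfsf9 at 2.04 ± 0.482, Tnfsf14 at 0.640 ± 0.020, Ltb at 0.520 ± 0.292, Tnfsf10 at 0.473 ± 0.205, Tnfsf15 at 0.197 ± 0.182 and Lta at 0.0533 ± 0.0924. Tnfsf14, Ltb and Tnfsf10 did not differ beyond their spread, nor did Tnfsf15 and Lta. With LPS, Tnf stood at 7471 ± 151 TPM, and Tnfsf10 at 57.7 ± 9.99, Tnfsf9 at 50.4 ± 1.35 and Tnfsf15 at 47.2 ± 14.9 followed with overlapping spreads. Lta at 1.91 ± 0.497, Ltb at 1.73 ± 0.959 and Tnfsf13b at 0.903 ± 0.294 came next, each overlapping its neighbour, and Tnfsf14 was last at 0.0967 ± 0.0950.

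**Figure D1:**
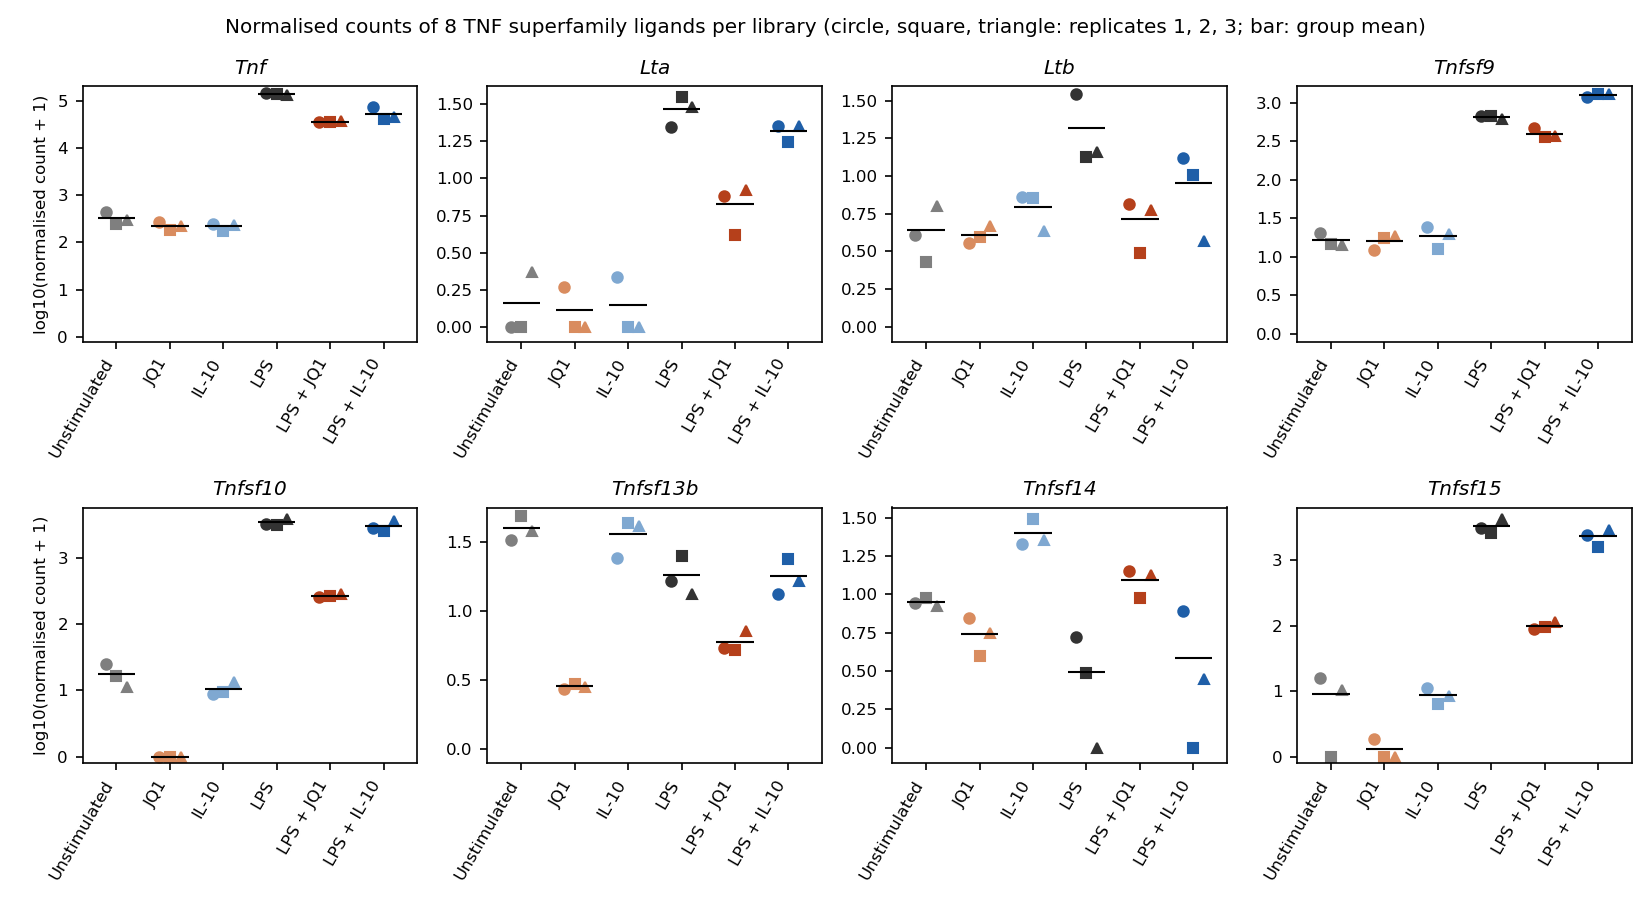
Normalised counts on the log10(count + 1) scale (vertical axis) of the 8 ligands in the 6 groups (horizontal axis), with 1 symbol per replicate and a bar at the group mean; vertical scales differ between panels. The 3 LPS groups of Tnf, Tnfsf9, Tnfsf10 and Tnfsf15 lie above all libraries without LPS, and Tnfsf10 is at 0 in the 3 JQ1 libraries.

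Of the 8 ligands, 6 rose and 2 fell with LPS in the DESeq2 test across all genes, in which a gene was called when its Benjamini-Hochberg adjusted p was under 0.05. Over all 14965 genes tested, 31.6% were called higher and 32.9% lower. The median log2 fold change was 5.48 over the 8 ligands and -0.07 over all genes tested. The split over all genes depends on the scaling: 49.0% of called genes were higher with median-of-ratios scaling and 20.1% when libraries were scaled to their total counts, a scaling that shifts the median of expressed genes by -0.93 (log2). Every direction given here for the ligands held under that scaling.

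Tnf rose 416-fold and Tnfsf15 411-fold over the unstimulated means, with overlapping intervals. These folds are of normalised counts, and their size depends on the processing. Over the alternatives the log2 fold change ran from 5.30 to 9.05 for Tnfsf15 and from 7.76 to 8.98 for Tnf. In TPM the log2 ratio of mean Tnf levels was 7.91, against 8.70 in normalised counts. Unstimulated cells held 447, 242 and 297 normalised counts in replicates 1, 2 and 3, and LPS cells held 145049, 136379 and 129045. The LPS libraries were close to each other and lay far above all unstimulated ones (log2 fold change 8.69 ± 0.26 SE, adjusted p = 1.44e-252).

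Tnfsf15, a ligand that costimulates T cells and innate lymphoid cells, was at 14.7, 0 and 9.38 in unstimulated cells and at 3075, 2620.1 and 4188 with LPS. The unstimulated libraries therefore ranged from no count to a few, and the groups did not overlap (8.48 ± 0.42, adjusted p = 5.27e-90). Tnfsf10, the death receptor ligand TRAIL and a known interferon response gene, went from 23.9, 15.2 and 10.1 to 3267, 3159 and 3802 (7.71 ± 0.24, adjusted p = 1.77e-225). Replicate 3 was the highest of the LPS libraries for both genes, and none of the unstimulated libraries came near them. Tnfsf9, which costimulates T cells through Tnfrsf9, went from 19.3, 13.5 and 13.4 to 679, 667 and 622 (5.39 ± 0.23, adjusted p = 4.35e-120).

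The lymphotoxins form soluble and membrane trimers that organise lymphoid tissue. They rose to far lower levels with LPS than Tnf, Tnfsf15, Tnfsf10 and Tnfsf9 did. Lta had 2 counts over the 3 unstimulated libraries and normalised counts of 21.2, 34.1 and 29.5 with LPS (adjusted p = 3.78e-07). The ratio of summed normalised counts was 48.9, with a 95% exact counting interval of 13.1 to 411, which covers counting error only. Ltb was at 3.09, 1.69 and 5.36 without LPS and at 33.9, 12.4 and 13.5 with it, so that replicate 1 stood above the others (log2 fold change 2.41 ± 0.68, adjusted p = 0.000706). Within lanes, the Ltb difference was 3.40 on lane 7 and 1.13 on lane 8 on the log2(normalised count + 1) scale, with 1 or 2 libraries per group and lane.

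Tnfsf13b (BAFF, the survival factor of B cells) and Tnfsf14 (LIGHT, the ligand of Tnfrsf14 and Ltbr) moved the other way. Tnfsf13b was at 31.6, 47.4 and 36.9 in unstimulated cells and at 15.6, 23.8 and 12.3 with LPS. All 3 LPS libraries were lower than all 3 unstimulated ones (-1.12 ± 0.39, adjusted p = 0.00734). Tnfsf14 was at 7.71, 8.46 and 7.37 without LPS and at 4.24, 2.07 and 0 with it (-1.94 ± 0.79, adjusted p = 0.0228). Both calls rest on few counts and were lost without LPS replicate 3, with a log2 fold change of -0.92 and adjusted p = 0.0515 for Tnfsf13b and of -1.36 and adjusted p = 0.128 for Tnfsf14. The Tnfsf14 call was also lost without LPS replicate 2 (adjusted p = 0.0634) and with only the compared groups in the fit (adjusted p = 0.0870). Over all alternatives the adjusted p ranged from 2.68e-07 to 0.0515 for Tnfsf13b and from 0.000269 to 0.128 for Tnfsf14. Under total-count scaling the fall of Tnfsf13b was -2.05. Several marker lists of other cell types moved as well. B cell markers summed to 2.34 to 5.41 TPM in unstimulated cells and 0.89 to 1.53 TPM with LPS. T cell markers summed to 8.97 to 15.1 and 7.64 to 8.10 TPM, and endothelium markers to 0.59 to 0.77 and 7.48 to 9.59 TPM. Kdr carried the endothelium rise, since Cdh5, Tie1 and Tek reached at most 0.63, 0.12 and 0.03 TPM in any library. The part of other cell types in the changes with LPS was not tested.

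JQ1 ahead of LPS lowered 7 of the 8 ligands against LPS alone, and raised Tnfsf14. Among the 14326 genes tested, 32.9% were called lower and 24.4% higher, and the medians were -2.09 over the ligands and -0.11 over all genes tested. Of all called genes, 42.5% were higher with median-of-ratios scaling and 64.9% under total-count scaling. The losses differed widely in size among the ligands, from less than 2-fold for Tnfsf9 to 33.9-fold for Tnfsf15.

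Tnf was at 35589, 34387 and 37076 with LPS + JQ1, against 145049, 136379 and 129045 with LPS. The 3 libraries held 24.5%, 25.2% and 28.7% of the LPS library of the same replicate number, and no library of a group reached the other (-1.94 ± 0.25, adjusted p = 6.28e-14). Even so, Tnf with LPS + JQ1 was 159-fold above JQ1 alone.

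Tnfsf15 and Tnfsf10 lost the most. Tnfsf15 was at 87.2, 93.7 and 111, which is 2.84%, 3.58% and 2.65% of the LPS level of the same replicate number (-5.08 ± 0.34, adjusted p = 1.92e-50). Tnfsf10 was at 253, 263 and 282, or 7.74%, 8.34% and 7.41% (-3.68 ± 0.15, adjusted p = 4.9e-136). For both genes the LPS + JQ1 libraries were close together and far from LPS.

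Tnfsf9 kept the largest share, at 464, 362 and 364 normalised counts, or 68.4%, 54.3% and 58.5%, still below all LPS libraries (-0.72 ± 0.12, adjusted p = 1.16e-08). Under total-count scaling this loss was -0.35 and still called. On log2(TPM + 0.1) with limma it was not called (-0.43, adjusted p = 0.0900, within a range over the alternatives from 1.29e-12 to 0.0900). Lta was at 6.63, 3.16 and 7.39 (-2.33 ± 0.55, adjusted p = 5.65e-05) and Ltb at 5.52, 2.11 and 4.92 (-2.24 ± 0.69, adjusted p = 0.00238). Both lymphotoxins were below every LPS library, at 20.2% and 21.0% of the mean LPS level. Tnfsf13b, already lowered by LPS, was at 4.42, 4.21 and 6.15 (-1.84 ± 0.54, adjusted p = 0.00164).

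Tnfsf14 was at 13.3, 8.42 and 12.3 with LPS + JQ1 and at 4.24, 2.07 and 0 with LPS, so all 3 libraries were higher (2.48 ± 0.78, adjusted p = 0.00317). These are 30 counts against 5, and the ratio of summed levels was 5.60 with a 95% counting interval of 2.15 to 18.5.

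Markers of several other cell types moved with JQ1 at the same time. The 7 T cell markers summed to 7.64 to 8.10 TPM with LPS and to 0.53 to 1.01 TPM with LPS + JQ1, the 6 B cell markers to 0.89 to 1.53 and 0.14 to 0.72 TPM, and the 6 neutrophil markers to 34.8 to 49.2 and 13.0 to 29.6 TPM. The T cell sum was carried by Cd28, Lck and Cd247, with Cd3d at 0 in 13, Cd3e in 15 and Cd3g in 15 of 18 libraries. The 4 endothelium markers, chiefly Kdr, summed to 7.48 to 9.59 TPM with LPS and to 0.04 to 0.14 TPM with LPS + JQ1. The 5 dendritic cell markers summed to 2.15 to 3.06 and 1.15 to 1.46 TPM. Sums of the 4 fibroblast markers (3.21 to 6.33 and 1.90 to 6.44 TPM) overlapped between the groups. So did those of the 4 mast cell or basophil markers (0.17 to 0.52 and 0.10 to 0.48 TPM). The part of other cell types in the changes of the low ligands Lta, Ltb, Tnfsf13b and Tnfsf14, which lymphocytes also express, was not tested.

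**Figure D2:**
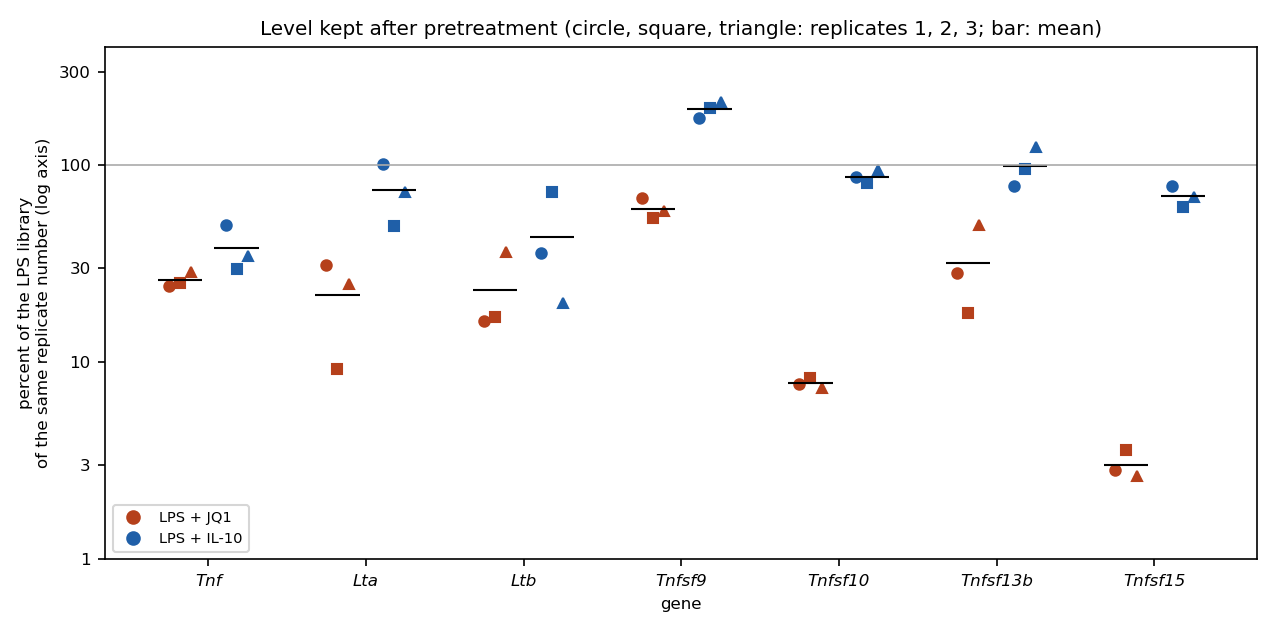
Level in each LPS + JQ1 and LPS + IL-10 library as percent of the LPS library of the same replicate number (vertical log axis) for 7 ligands (horizontal axis), with 1 symbol per replicate and a bar at the mean; Tnfsf14, with an LPS library at 0, is left out. With JQ1 all 21 points lie below 100 percent, whereas with IL-10 only Tnf, Ltb, Tnfsf10 and Tnfsf15 have all 3 points below it and Tnfsf9 has all 3 above.

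Without LPS, JQ1 lowered Tnfsf10, Tnfsf13b and Tnfsf15 among the 8 ligands, where 23.7% of 13686 genes tested were called lower and 21.9% higher. The share of higher genes among those called was 48.0%, and 26.8% under total-count scaling. Tnfsf10 was at 0 in all 3 JQ1 libraries against 23.9, 15.2 and 10.1 in unstimulated cells, which is at least 17.7-fold lower when the JQ1 group is set at 3 counts in all (adjusted p = 2.73e-07). Tnfsf13b was at 1.73, 1.97 and 1.83 against 31.6, 47.4 and 36.9, a loss in which neither group approached the other (-4.36 ± 0.67, adjusted p = 7.59e-10). Tnfsf15 had 1 count with JQ1 and 33 without, a ratio of 0.0314 with a counting interval of 0.000772 to 0.188 (adjusted p = 0.000462). This call was lost with limma on log2(TPM + 1) (adjusted p = 0.355, within a range from 0.000117 to 0.355), and the groups overlapped because unstimulated replicate 2 was at 0.

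Tnf was at 271, 180.4 and 223 with JQ1 against 447, 242 and 297, lower in all 3 replicate pairs with overlapping groups. This difference was not called (-0.55 ± 0.26, adjusted p = 0.0698), and was called with the replicate number as a block (-0.54, adjusted p = 0.00267). It was also called without unstimulated replicate 2 (-0.73, adjusted p = 0.00520) or JQ1 replicate 1 (-0.71, adjusted p = 0.0371). Over the alternatives its adjusted p ranged from 0.00267 to 0.347. The 95% intervals of the log2 fold change were -3.94 to 2.24 for Lta, -1.81 to 1.28 for Ltb, -0.66 to 0.54 for Tnfsf9 and -1.91 to 0.39 for Tnfsf14, none of them called. The T cell markers summed to 8.97 to 15.1 TPM in unstimulated cells and 2.44 to 3.67 TPM with JQ1, the B cell markers to 2.34 to 5.41 and 0.23 to 0.50 TPM and the neutrophil markers to 23.2 to 82.2 and 7.46 to 16.4 TPM, and their part in these losses was not tested.

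Whether JQ1 acted differently with and without LPS was tested as an interaction, for which 17.7% of 12727 genes were called with a higher and 23.8% with a lower log2 effect under LPS. The effect on Tnf was stronger under LPS (-1.39 ± 0.36, adjusted p = 0.000552), by less under total-count scaling (-0.83, adjusted p = 0.0415, the highest of its range from 1.47e-09). For Tnfsf13b the interaction was 2.53 ± 0.86 (adjusted p = 0.0105), the loss with JQ1 being smaller under LPS, and for Tnfsf14 it was 3.24 ± 0.98 (adjusted p = 0.00319), with opposite signs of the effect. For Tnfsf10 it was 2.91 ± 1.21 (adjusted p = 0.0407), but one of the 4 groups is at 0 and the sign turned on log2(TPM + 1), where it was -2.61. That call was also lost with edgeR (adjusted p = 0.0564), without unstimulated replicate 1 (adjusted p = 0.108) and without JQ1 replicate 1, 2 or 3 (adjusted p = 0.101 to 0.114), within a range from 5.15e-08 to 0.114. The other 4 ligands were not called, except that Tnfsf9 was without JQ1 replicate 1 (-0.85, adjusted p = 0.0451) or LPS + JQ1 replicate 1 (-0.80, adjusted p = 0.0345), within a range up to 0.815, and that limma on TPM called Lta, Ltb and Tnfsf15 in at least 1 of its 2 forms. Over all genes, the share with a higher effect among those called was 42.6% with median-of-ratios scaling and 85.4% under total-count scaling.

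**Figure D3:**
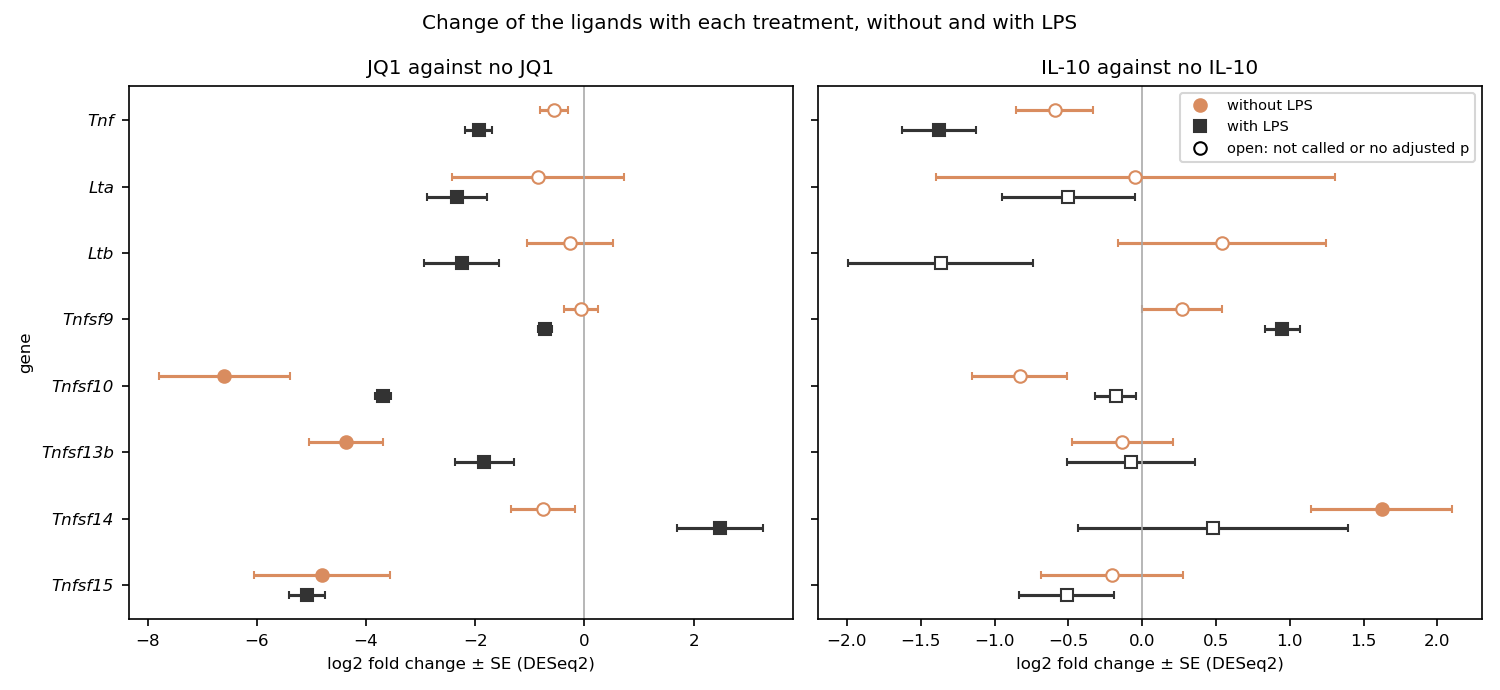
Log2 fold change ± SE (horizontal axis) of each ligand (vertical axis) with JQ1 (left) and IL-10 (right), without LPS (circles) and with LPS (squares); filled symbols passed an adjusted p of 0.05. With JQ1 and LPS, 7 filled squares lie to the left of 0 and that of Tnfsf14 to the right, and with IL-10 and LPS only Tnf and Tnfsf9 are filled, on opposite sides. The Tnfsf10 circle under JQ1 rests on a group at 0.

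IL-10 ahead of LPS changed fewer of the ligands: 1 was lower and 1 higher of the 5 with an adjusted p. Over 11448 genes tested, 8.81% were called lower and 8.38% higher. The medians were -0.18 for the 5 ligands and -0.02 over all genes tested, and 48.7% of called genes were higher, or 71.1% under total-count scaling. The comparison shares its LPS libraries with that of JQ1.

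Tnf was at 72494, 40773 and 44546 with LPS + IL-10, or 50.0%, 29.9% and 34.5% of the LPS level (-1.38 ± 0.25, adjusted p = 9.96e-07). All 3 libraries were below LPS, and replicate 1 stood well above the others. Tnfsf9 went the other way, to 1189.5, 1307 and 1305 from 679, 667 and 622, so that all 3 pairs had 175% to 210% of the LPS level (0.95 ± 0.12, adjusted p = 3.07e-14). Tnf and Tnfsf9 thus changed in opposite directions with IL-10, while both fell with JQ1.

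Tnfsf10 was at 2855, 2579.6 and 3590.2 (-0.18 ± 0.14, adjusted p = 0.46) and Tnfsf15 at 2409, 1609.8 and 2912 (-0.51 ± 0.32, adjusted p = 0.334). Both were lower in all 3 replicate pairs, with groups that overlapped, and neither was called, except that Tnfsf10 was called without LPS + IL-10 replicate 3 (-0.32, adjusted p = 0.0283, within a range from 0.0283 to 0.871). Their 95% intervals of -0.45 to 0.09 and -1.15 to 0.12 leave out losses of the size seen with JQ1. Tnfsf13b was at 12.2, 22.8 and 15.3 (-0.08 ± 0.43, adjusted p = 0.943). Lta, Ltb and Tnfsf14 had too few counts for an adjusted p. Lta was at 21.7, 16.7 and 21.6 (-0.50 ± 0.45) and Tnfsf14 at 6.77, 0 and 1.80 (0.48 ± 0.91), with groups that overlapped LPS. Ltb was at 12.2, 9.12 and 2.70 (-1.36 ± 0.63), on 18 counts against 47 with LPS, and its groups did not overlap.

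Without LPS, IL-10 raised Tnfsf14, from 7.71, 8.46 and 7.37 to 20.4, 30.0 and 21.6, 1 of 8 ligands where 1.80% of 12727 genes were called higher and 1.01% lower. The groups did not overlap (1.62 ± 0.48, adjusted p = 0.0282). The call was not stable: without unstimulated replicate 2 the adjusted p was 0.0685, and with limma on log2(TPM + 0.1) it was 0.166. Only 8 alternatives gave an adjusted p, from 0.000888 to 0.166, and 6 of them called the gene. It received no adjusted p with the replicate number as a block or the lane covariate. The same held without unstimulated replicate 1 or 3 and without any of the IL-10 libraries. Tnf was at 248, 174 and 233, lower than the unstimulated library in all 3 replicate pairs (-0.59 ± 0.26, adjusted p = 0.334), and was called lower with the replicate number as a block (-0.58, adjusted p = 0.0108) and without unstimulated replicate 2 (-0.76, adjusted p = 0.0383), within a range from 0.0108 to 0.793. Tnfsf10 was at 7.85, 8.45 and 12.5 (-0.83 ± 0.32, adjusted p = 0.192), and was called without unstimulated replicate 3 (-1.19, adjusted p = 0.0298, within a range from 0.0298 to 0.974).

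The interaction of IL-10 with LPS called 4.00% of 10808 genes higher and 3.44% lower, and none of the 5 ligands with an adjusted p by DESeq2, nor any with edgeR. At an unadjusted p under 0.05 it held for 2 of them, Tnf and Tnfsf9. For Tnf it was -0.79 ± 0.36 (adjusted p = 0.215), and was called with the replicate number as a block (-0.85, adjusted p = 0.00205), without unstimulated replicate 1 (-1.07, adjusted p = 0.00377) and without LPS + IL-10 replicate 1 (-1.08, adjusted p = 0.000798), within a range up to 0.480.

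Set directly against each other under LPS, JQ1 left 6 ligands lower and 1 higher than IL-10 did. Of the 14326 genes tested, 31.6% were called lower and 23.8% higher. Tnfsf15 (-4.57 ± 0.34), Tnfsf10 (-3.50 ± 0.15) and Tnfsf9 (-1.67 ± 0.12) differed most in units of their error, with adjusted p of 5.9e-41, 4.86e-123 and 2.89e-43. Lta (-1.83 ± 0.56, adjusted p = 0.00243) and Tnfsf13b (-1.76 ± 0.55, adjusted p = 0.0029) were also lower with JQ1. Tnf was lower by a small margin (-0.56 ± 0.25, adjusted p = 0.0467) that was not called in 9 of 15 alternatives, with an adjusted p from 0.00104 to 0.373. Leaving out LPS + IL-10 replicate 1 brought it to -0.26 (adjusted p = 0.244), and leaving out any of the 3 LPS + JQ1 libraries also ended the call, at adjusted p from 0.0787 to 0.113. The difference was -1.03 on lane 7 and -0.26 on lane 8 on the log2(normalised count + 1) scale. Tnfsf14 was higher with JQ1 (2.00 ± 0.70, adjusted p = 0.00888), a call lost without LPS + IL-10 replicate 2 (1.53, adjusted p = 0.0592) or replicate 3 (1.67, adjusted p = 0.0722) and at 3.34 without replicate 1. Ltb was not called (95% interval -2.32 to 0.56).

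LPS still acted on the ligands in treated cells. With JQ1 present, 6 of 8 were higher with LPS, where 27.6% of 13686 genes were higher and 31.0% lower. The rise was 7.31 ± 0.26 for Tnf (adjusted p = 1.25e-176) and 4.72 ± 0.24 for Tnfsf9 (adjusted p = 4.55e-87). For Tnfsf10 it was at least 289-fold against a JQ1 group at 0 (708 counts over the LPS + JQ1 libraries). For Tnfsf15 the 258 counts against 1 gave a ratio of 316 with a counting interval of 56.1 to 12512, and for Lta the 15 counts against 1 gave 18.3 with an interval of 2.82 to 772. Tnfsf14 was higher by 1.30 ± 0.58 (adjusted p = 0.0414), but not with the replicate number as a block (1.32, adjusted p = 0.0503). That call was also lost with total-count scaling (0.92), with limma on log2(TPM + 0.1) (0.88), with only the compared groups (1.37), without JQ1 replicate 2 (1.08, adjusted p = 0.142) or 3 (adjusted p = 0.0876), and without LPS + JQ1 replicate 1 (adjusted p = 0.124) or 3 (adjusted p = 0.0957), within a range from 0.0226 to 0.150. Ltb (0.44 ± 0.80) and Tnfsf13b (1.41 ± 0.77) were not called.

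With IL-10 present, 5 ligands rose and 2 fell with LPS, where 33.2% of 14326 genes were higher and 33.8% lower. The rises were 7.91 ± 0.26 for Tnf, 8.36 ± 0.25 for Tnfsf10, 8.18 ± 0.40 for Tnfsf15, 6.07 ± 0.19 for Tnfsf9 and 5.13 ± 0.95 for Lta. Tnfsf14 fell from 20.4, 30.0 and 21.6 to 6.77, 0 and 1.80 (-3.08 ± 0.66, adjusted p = 7.57e-06) and Tnfsf13b fell by 1.06 on the log2 scale (adjusted p = 0.0104). The Tnfsf13b call was lost without IL-10 replicate 2 (-0.90, adjusted p = 0.0612), without LPS + IL-10 replicate 1 (-0.89, adjusted p = 0.0640) and without LPS + IL-10 replicate 3 (-0.99, adjusted p = 0.0541).

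Over the 18 libraries, the genes whose variance-stabilised levels were most like those of a ligand were listed for the 5 ligands with a mean of at least 10 normalised counts, among 8377 genes (8378 for Tnfsf13b) with a mean of at least 100. Pearson correlations are descriptions, since the libraries share the large effect of LPS. Tnf went most closely with the chemokine genes Ccl3 (0.998) and Cxcl2 (0.997) and with Mtmr14 (0.998). Tnfsf9 went with Plagl2, Lyn and Trim56 (0.994 to 0.996), Tnfsf10 with Gnb4, Parp12 and Batf2 (0.997 to 0.998), Tnfsf15 with Slfn1, Sp100 and Coa5 (0.993 to 0.995) and Tnfsf13b with Tomm40l, Arl2 and Exd2 (0.942 to 0.954). On log2(TPM + 1), all 3 genes remained among the 3 most like Tnf, 2 for Tnfsf13b, 1 for Tnfsf9 and 0 for Tnfsf10 and Tnfsf15. Leaving out a replicate number also changed these lists: 1 of 3 remained for Tnf without replicate 3, for Tnfsf9 and Tnfsf10 without replicate 1 and for Tnfsf15 without replicate 1 or 3, and 0 for Tnfsf15 without replicate 2. Among the ligands, Tnfsf10 and Tnfsf15 were most alike (0.982) and Tnf and Tnfsf9 came next (0.971), while Tnfsf13b was at -0.16 to 0.09 with the others.

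Of 13 receptor genes, 12 were tested with LPS, of which 4 rose and 3 fell, with a median log2 fold change of 1.18, beside 31.6% higher and 32.9% lower over all genes tested. Tnfrsf1b, the TNF receptor of leukocytes, rose from a mean of 10065 to 73325 normalised counts (2.87), Tnfrsf14 rose by 2.40, and Tnfrsf1a, the death domain receptor of TNF, rose by 1.64. The fourth riser, Tnfrsf10b, and the 3 that fell, Tnfrsf22, Tnfrsf23 and Tnfrsf13b, had means below the 100 normalised counts set for named genes and are named because they are few. Under total-count scaling 3 rose and 4 fell, Tnfrsf10b no longer being called. With LPS + JQ1 against LPS, 5 fell and 2 rose, with a median of -0.66, beside 32.9% lower and 24.4% higher over all genes: the named falls were Tnfrsf14 (-2.54), Tnfrsf1a (-1.48) and Tnfrsf1b (-0.78), while Tnfrsf22 and Tnfrsf23 rose. With LPS + IL-10, 1 of 8 tested was called, Tnfrsf1b at 0.50 (adjusted p = 1.4e-09), where 8.38% of all genes were higher; under total-count scaling and with TMM factors 3 receptors were called higher. Tnfrsf9, the receptor of Tnfsf9, had too few counts for an adjusted p and is named after its values were seen: it was at a mean of 2.11 ± 0.947 (SD, n = 3) normalised counts with LPS and 22.8 ± 4.92 with LPS + IL-10 (log2 fold change 3.48 ± 0.86), and the groups did not overlap.

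The other ligands of the superfamily, 10 by list, included 8 tested with LPS, of which 4 rose and 2 fell, beside 31.6% and 32.9% over all genes tested. Tnfsf4, which costimulates T cells, was at 0.257 normalised counts on average in unstimulated cells, at 415 after LPS, at 40.4 after LPS + JQ1 and at 181 after LPS + IL-10, log2 fold changes of -3.36 with JQ1 and -1.19 with IL-10 against LPS (adjusted p = 1.68e-36 and 6.36e-06). The other risers, Cd70, Tnfsf8 and Tnfsf18, are named because they are few, and had LPS means of 3.49, 63.8 and 9.40; under total-count scaling Cd70 was not called. Tnfsf12 and Tnfsf13, ligands that resting macrophages express, fell with LPS (-1.96 and -0.91) and were lower again with LPS + JQ1 (-2.58 and -3.28). Both were also lower with JQ1 in the absence of LPS (-2.27 and -2.79). With LPS + JQ1, 5 of the 8 tested fell, where 32.9% of all genes did; the fall of Tnfsf18 was not called under total-count scaling, with TMM factors or under the replicate block.

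Among 9 genes of ligand shedding and processing, 7 rose and 2 fell with LPS, with a median of 1.62 (5 and 3 under total-count scaling), beside 31.6% and 32.9% over all genes tested. Rhbdf2, which carries Adam17 to the cell surface, rose by 3.52, Sppl2a, which cuts the membrane stub of TNF, by 2.24, and Adam17 by 1.75, while Sppl2b (-1.46) and Adam10 (-0.71) fell. With LPS + JQ1, 6 fell and 2 rose (4 and 3 under total-count scaling), where 32.9% of all genes fell and 24.4% rose: Adam17 (-0.95), Sppl2a (-1.06) and Frmd8 (-0.44) fell, and Sppl2b rose by 1.67 and Adam10 by 0.30, while Rhbdf2 had a change of -0.03 (adjusted p = 0.796). The Frmd8 fall was -0.06 and not called under total-count scaling. With LPS + IL-10 only Adam17 of the 9 was called, at -0.33 (adjusted p = 0.00772), where 8.81% of all genes tested were lower and 8.38% higher. It was not called under total-count scaling (adjusted p = 0.128).

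Of the 23 genes that carry or brake the signal of the receptors, 17 rose and 3 fell with LPS, with a median of 1.84, beside 31.6% and 32.9% over all genes tested. Traf1 rose by 7.62, the deubiquitinase gene Tnfaip3, which brakes NF-kB, by 6.30, and Cflar, which blocks caspase 8, by 4.92. Map3k14, the kinase of the noncanonical NF-kB arm, fell, as did Fadd and Traf3 (-3.05, -0.84 and -0.53). With LPS + JQ1 14 fell and 5 rose (32.9% and 24.4% over all genes), led by Traf1 (-3.81), Tnfaip3 (-1.68) and Birc3 (-1.35) among the falls and by Map3k14 (2.58), Tradd (0.90) and Fadd (0.52) among the rises. With LPS + IL-10 6 fell and 1 rose (8.81% and 8.38% over all genes), Traf5 (-0.70), Cflar (-0.44) and Ikbkb (-0.43) being the named falls and Traf3 rising by 0.45. The Cflar fall was -0.31 and not called in either limma form (adjusted p = 0.0622 and 0.0633). Under total-count scaling LPS left 13 higher and 9 lower, JQ1 then left 8 higher and 11 lower, and IL-10 left 2 higher and 4 lower.

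The regulators of Tnf mRNA stability split. Of 8 genes, 5 rose and 3 fell with LPS, beside 31.6% and 32.9% over all genes tested: Zc3h12a rose by 3.30, Zfp36 by 2.34 and Rc3h2 by 1.38, and Zfp36l1 (-5.16), Zfp36l2 (-3.74) and Tia1 (-0.85) fell. Zfp36, whose protein binds AU-rich stretches such as that of Tnf, rose further with LPS + JQ1 (1.11, adjusted p = 3.99e-38) and with LPS + IL-10 (0.52, adjusted p = 3.18e-08), from a mean of 10569 with LPS to 22836 and 15152. Tia1 and Zfp36l1 rose with LPS + JQ1 by 1.29 and 1.28. Rc3h2, Rc3h1 and Elavl1 fell with it (-0.61, -0.37 and -0.36), calls that did not hold under total-count scaling, where the signs for Rc3h1 and Elavl1 turned (0.00 and 0.02). With LPS + IL-10, Zc3h12a rose by 0.25 and Zfp36l2 changed by -0.27, and neither was called with edgeR.

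Neighbours of the Tnf locus were set beside the members because Tnf, Lta and Ltb all fell with JQ1. Of 9 symbols listed, 6 were present, and 5 rose with LPS, among them Nfkbil1 by 1.32, Prrc2a by 1.20 and Aif1 by 0.95, where 31.6% of all genes tested rose; under total-count scaling 2 rose and 2 fell and Aif1 was at 0.02. With LPS + JQ1, 4 of 6 fell, where 32.9% of all genes did, or 3 fell and 2 rose under total-count scaling, and among the falls were Lst1 (-3.94), Aif1 (-3.05) and Nfkbil1 (-2.13). Without LPS, JQ1 lowered 3 of the 6 and raised 1, where 23.7% of all genes tested were lower and 21.9% higher. Lst1 (-3.31) and Aif1 (-2.09) fell there too, while Nfkbil1 (-0.02), Tnf, Lta and Ltb were not called in the main test. With LPS + IL-10 the median over the 6 was 0.09.

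**Figure D4:**
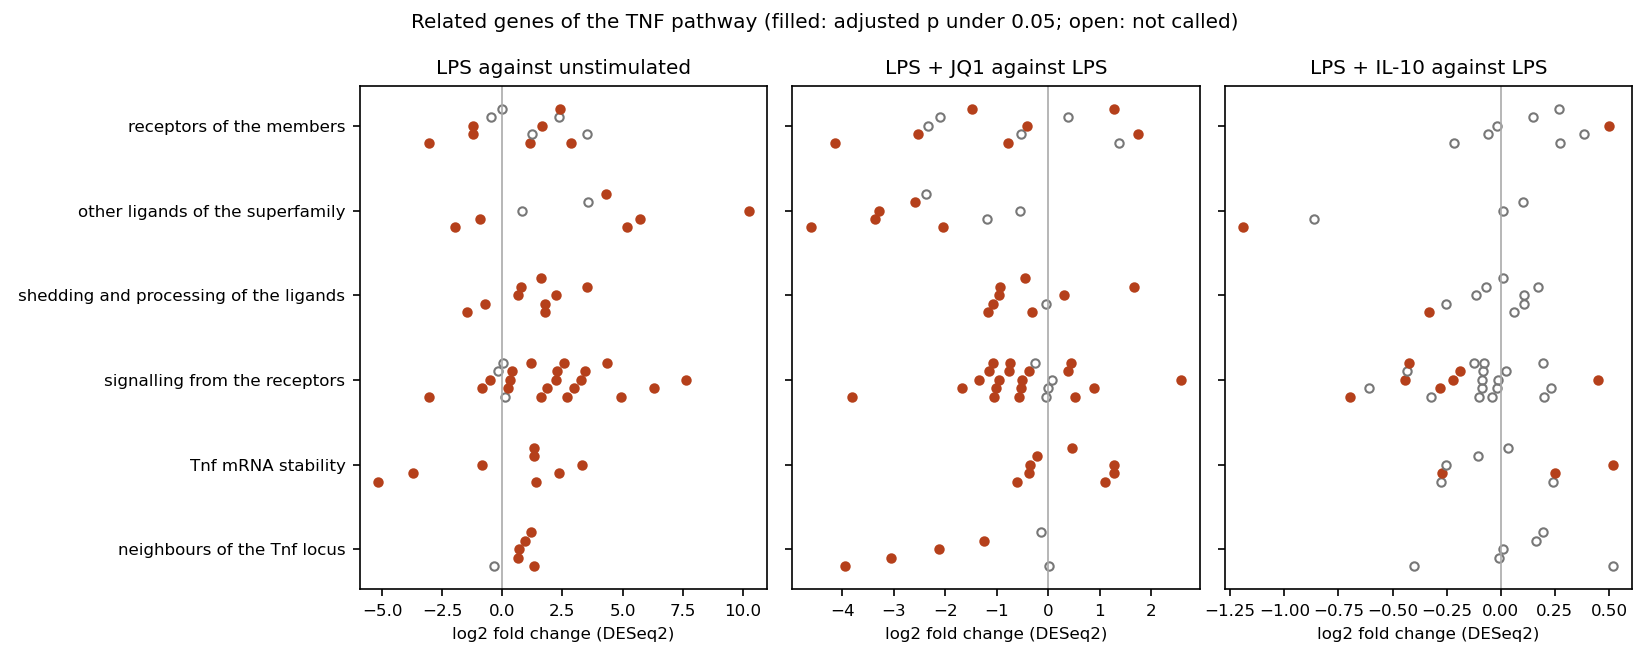
Log2 fold change (horizontal axis) of the related genes, 1 row of points per list (vertical axis), for LPS, for LPS + JQ1 against LPS and for LPS + IL-10 against LPS; filled points passed an adjusted p of 0.05, horizontal scales differ between panels, and genes without an adjusted p in a comparison, such as Tnfrsf9 with IL-10, are left out. Under IL-10 the points shown lie within -1.19 and 0.52, whereas under JQ1 they run from -4.61 to 2.58.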

How the data were processed

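RNA-seq of 18 libraries was analysed from the files the authors deposited. Per the labels and methods, the authors made stranded, ribosomal RNA-depleted libraries, aligned reads to mm9 with STAR and quantified them with RSEM 1.2.31. The deposited expected counts are RSEM estimates, rounded here before testing, and the deposited TPM values are scaled by the authors for length and library. FPKM values were not used. Groups came from the sample titles. The main test was the Wald test of DESeq2 1.42.0 (R 4.3.3) in a model of group effects over the 18 libraries, with size factors by median of ratios, independent filtering, Benjamini-Hochberg adjustment over all genes tested and calls at an adjusted p under 0.05. Intervals are normal 95% intervals of the log2 fold change, or exact binomial 95% intervals on summed counts; folds against a group at 0 use a floor of 3 counts over the group, and the counting intervals and floors cover counting error only.

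Alternatives were a block for the replicate number, edgeR 4.0.16 quasi-likelihood with TMM, TMM factors or total counts in DESeq2, a filter of at least 10 counts in at least 3 libraries, limma 3.58.1 on log2(TPM + 1) and log2(TPM + 0.1), the compared groups only, the sequencing lane as a covariate, and leaving out each library. Scripts were tested on simulated counts. The labels state matched samples and 3 mice but do not tie a replicate number to a mouse; the numbers were taken to pair the libraries, and mean correlations of their deviations from group means were -0.0652 to 0.400 over 8 comparisons. Lane 7 held replicate 1, lane 8 replicate 3, and replicate 2 was on lane 7 without LPS and lane 8 with it. Replicates differed beyond sampling noise (chi-square per degree of freedom 3.97 to 28.3). The highest values were those of replicate 3 against replicates 1 and 2, in LPS (24.2 and 28.3) and in LPS + IL-10 (28.0 and 26.9). Every other pair was at 10.5 or below. The members and lists were chosen with earlier results of these data known, and the 3′ UTR nonamer was added last. Besides the members, named genes are the 3 most correlated genes per member with a mean of at least 10, and from each list up to 3 rises and 3 falls in each of 3 comparisons (mean normalised count at least 100, adjusted p under 0.05). Positions are from GENCODE vM1 (mm9) and promoter sequences from RefSeq (GRCm38.p6), searched from 250 bases before to 50 after each start.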

Additional observations from a re-analysis of the deposited data

Results flagged for a closer look

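The DESeq2 test of the interaction of JQ1 with LPS called 4 of the 8 ligands. Of all genes tested, 17.7% were called with a higher and 23.8% with a lower effect under LPS. The count is therefore not read as particular to the ligands. For Tnf the interaction was -1.39 (adjusted p = 0.000552), or -0.83 under total-count scaling (adjusted p = 0.0415): JQ1 lowered it in all 3 replicate pairs with LPS and, by less, in all 3 without. For Tnfsf10 it was 2.91 (adjusted p = 0.0407), a value that rests on a JQ1 group with no counts. Its sign turned with limma on log2(TPM + 1) (-2.61) and on log2(TPM + 0.1) (-0.89), so no direction is given for it. For Tnfsf13b it was 2.53 (adjusted p = 0.0105), from 6 counts over the 3 JQ1 libraries. For Tnfsf14 it was 3.24 (adjusted p = 0.00319), the gene being lower in 3 of 3 pairs with JQ1 alone and higher in 3 of 3 with LPS + JQ1, on 5 to 30 counts per group.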

How the results depend on the processing

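Of the alternatives, the directions of the members called in a pairwise comparison held in all that gave an adjusted p. The interaction of JQ1 with LPS for Tnfsf10 reversed to -2.61 on log2(TPM + 1) and to -0.89 on log2(TPM + 0.1), and the log2 ratio of mean Tnfsf13b levels, LPS + IL-10 to LPS, to 0.10 in TPM. Under the replicate block, which moved the number of genes called in no comparison by over 1.5 times, Tnf was called lower with JQ1 (-0.54), with IL-10 (-0.58) and in the IL-10 interaction (-0.85), so the ligands called lower became 1 with IL-10 and 1 in that interaction and those higher with IL-10 became 0, Tnfsf14 having no adjusted p there; beside the Tnfsf14 change with LPS in JQ1 cells it changed no other call. Tnf with JQ1 was also called by edgeR (-0.58), total-count scaling (-0.73), limma (-0.69 and -0.72) and the lane covariate (-0.55). Tnf with LPS + JQ1 against LPS + IL-10 was not called with TMM factors (-0.46), total counts (-0.27), limma (-0.32 and -0.32) or the 2 groups alone (-0.48). The number of ligands higher with IL-10 was 0 with limma on log2(TPM + 0.1). It was also 0 with the lane covariate, where Tnfsf14 had no adjusted p. The number lower with LPS was 1 with the 2 groups alone, and the number lower in the JQ1 interaction was 5 and 4 with limma. In the IL-10 interaction limma on log2(TPM + 1) called 1 higher and 1 lower. The causes of the other changes were not tested.

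Leaving out 1 library gave 0 to 2 ligands lower with LPS, 0 to 0 higher and 0 to 1 lower with IL-10, 1 to 2 lower with LPS + IL-10 against LPS, 0 to 1 higher with LPS + JQ1 against LPS + IL-10, 1 to 2 lower with LPS in IL-10 cells, 1 to 2 lower in the JQ1 interaction and 0 to 1 lower in the IL-10 interaction. Of these fits, only that without unstimulated replicate 2 gave Tnfsf14 an adjusted p with IL-10 (0.0685), so the others did not test that call. With 1 library left out, Tnf ranged from -0.73 to -0.27 with JQ1 and from -0.76 to -0.31 with IL-10. It ranged from -0.71 to -0.26 with LPS + JQ1 against LPS + IL-10 and from -1.08 to -0.61 in the IL-10 interaction. Over all genes, IL-10 called 358 in the main test, 231 with edgeR and 171 and 117 with limma, the IL-10 interaction 804 and 529 with limma on log2(TPM + 0.1), and LPS + IL-10 against LPS 1968 and 1089 with the 2 groups alone. Total-count scaling moved the share of higher genes among those called from 42.9% to 61.2% for LPS + JQ1 against LPS + IL-10, from 47.1% to 25.6% and from 49.6% to 21.0% for LPS in JQ1 and IL-10 cells, and from 53.7% to 73.6% in the IL-10 interaction; TMM factors moved it to 54.7% in the JQ1 interaction. The Tnf interaction with JQ1 moved from -1.39 to -0.83 under total-count scaling. Lta, Ltb, Tnfsf13b and Tnfsf14 lie near the counting limit, so smaller differences in them were not detectable at this depth.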
